A study of Homo sapiens with 6 samples.

Results

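The transcripts described here encode 4 receptor tyrosine kinases, *EGFR*, *ERBB2*, *ERBB3* and *IGF1R*, and 6 inhibitors that act on such receptors or on the RAS pathway beneath them, *ERRFI1*, *SPRY1*, *SPRY2*, *SPRY4*, *SPRED1* and *SPRED2*. They were taken by symbol from a table of 29744 genes, in which all 10 were found in all 6 samples. The samples were LNCaP cells, an androgen-sensitive human prostate cancer line, grown in serum-containing medium and exposed for 4 h to 250 nM CDKI-73 (3 biological replicates) or to the vehicle DMSO (3 biological replicates). CDKI-73 is a compound that blocks CDK9, which helps RNA polymerase II pass from pausing into elongation, and it also acts on other cyclin-dependent kinases. The DMSO samples carry CDKI-73 in their titles as well, so the groups, and every direction given here, rest on the treatment label. PolyA+ RNA was sequenced, and values are CPM, which scale each gene's reads to a common total of counted reads per sample. In such bulk RNA, fewer cells with a transcript and less of it per cell cannot be told apart.

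EGFR, ERBB2 and ERBB3 are relatives that pair on the cell surface after ligand binding and signal through RAS-ERK and PI3K-AKT. ERBB2 has no known ligand of its own, ERBB3 has little kinase activity and recruits PI3K, and IGF1R is the receptor for the insulin-like growth factors. ERRFI1 (MIG6) binds the kinase domain of ERBB receptors and blocks it, while Sprouty and SPRED proteins restrain RAS-RAF signaling, SPRED1 through the RAS inactivator neurofibromin. Several of these inhibitors are themselves induced by ERK activity, so they are known as feedback genes. In prostate cancer cells, receptor and PI3K signaling run beside the androgen receptor.

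The 6 feedback genes were all lower in CDKI-73 treated cells, and the 4 receptors divided. *SPRY1* and *SPRY2* were left at 3.50% and 2.85% of their DMSO mean, *SPRED1*, *ERRFI1* and *SPRED2* at 19.2% to 23.1%, and *SPRY4* at 56.5%. *EGFR* was left at 55.8% and *IGF1R* at 70.0%, whereas the *ERBB2* and *ERBB3* values of the 2 groups overlapped. For 8 of the 10 genes every CDKI-73 sample was below every DMSO sample, beside 50.0% of the genes tested. A gene was called when it changed at least 2-fold and its limma adjusted p was at most 0.05, and 5 of the 10 genes were called lower, all of them feedback genes, beside 22.3% of the 13373 genes tested. *SPRY1* and *SPRY2*, whose level after CDKI-73 was under the filter of 0.5 CPM, entered the test only through their DMSO level, so their calls are a description. With scaling to *GAPDH*, *ACTB* and *HPRT1*, *EGFR* and *SPRY4* were called lower too, so the division of the calls depended on the scaling. With that scaling 32.9% of all genes were called lower. On the CPM scale as deposited none of the 10 genes was called higher, beside 1.11% of genes tested. Without the fold threshold, 8 of the 10 genes were lower in limma (6 of 6 feedback genes and 2 of 4 receptors), beside 48.2% of all genes, and 0 were higher, beside 24.2%. The median log2 change was -2.39 for the feedback genes and -0.27 for the receptors, beside -0.18 for all genes tested. A fall of at least 4-fold was found for 5 of the 6 feedback genes and for 8.12% of all genes tested. This count depended on the settings. *SPRED2* fell short of 4-fold with upper quartile scaling (log2 change -1.84) and without CDKI-73 replicate 3 (-1.92), and *SPRY2* with a pseudocount of 1 CPM (-1.07).

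**Figure D1:**
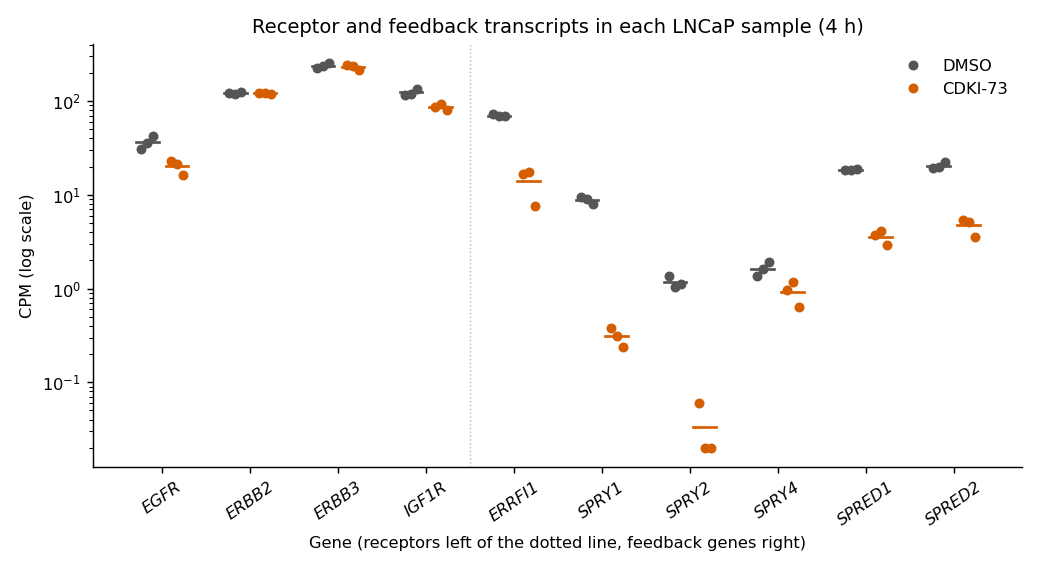
CPM of each of the 10 genes in each sample (log axis), with DMSO and CDKI-73 samples apart, points for samples and bars for group means. The groups are apart for 8 genes, with CDKI-73 below DMSO, and overlap for *ERBB2* and *ERBB3*.

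The stretches just upstream of 5 of these genes are shown as context for genes that run from the near loss of *SPRY1* and *SPRY2* to the smaller fall of the receptor *EGFR*. Each is the 250 bases before the RefSeq start site (GRCh38.p14), read 5′ to 3′ on the gene's strand. Capitals mark matches on either strand to the GC box GGGCGG or the EGR motif GCGGGGGCG, and these matches overlap in *SPRY2*. The windows lie at chr4:123396545-123396794 (+) for *SPRY1*, chr13:80341127-80341376 (-) for *SPRY2*, chr1:8026310-8026559 (-) for *ERRFI1*, chr15:38252586-38252835 (+) for *SPRED1* and chr7:55018767-55019016 (+) for *EGFR*.
SPRY1: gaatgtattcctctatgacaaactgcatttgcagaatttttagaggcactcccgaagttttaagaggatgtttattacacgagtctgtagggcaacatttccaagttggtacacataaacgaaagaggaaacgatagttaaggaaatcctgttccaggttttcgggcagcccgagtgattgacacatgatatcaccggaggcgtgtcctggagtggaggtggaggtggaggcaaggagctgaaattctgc
SPRY2: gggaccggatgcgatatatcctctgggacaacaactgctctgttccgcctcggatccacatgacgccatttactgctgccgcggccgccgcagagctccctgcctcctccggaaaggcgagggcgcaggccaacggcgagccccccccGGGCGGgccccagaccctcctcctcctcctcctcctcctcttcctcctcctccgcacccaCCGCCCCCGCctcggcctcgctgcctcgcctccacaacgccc
ERRFI1: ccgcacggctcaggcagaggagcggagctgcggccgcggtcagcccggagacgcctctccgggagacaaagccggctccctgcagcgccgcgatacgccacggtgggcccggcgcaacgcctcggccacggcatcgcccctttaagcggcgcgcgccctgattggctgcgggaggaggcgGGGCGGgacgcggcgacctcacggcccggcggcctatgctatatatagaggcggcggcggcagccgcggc
SPRED1: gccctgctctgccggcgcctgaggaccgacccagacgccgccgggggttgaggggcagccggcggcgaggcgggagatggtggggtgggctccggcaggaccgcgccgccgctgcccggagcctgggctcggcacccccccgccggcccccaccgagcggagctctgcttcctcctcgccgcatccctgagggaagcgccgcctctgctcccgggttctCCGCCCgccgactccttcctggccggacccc
EGFR: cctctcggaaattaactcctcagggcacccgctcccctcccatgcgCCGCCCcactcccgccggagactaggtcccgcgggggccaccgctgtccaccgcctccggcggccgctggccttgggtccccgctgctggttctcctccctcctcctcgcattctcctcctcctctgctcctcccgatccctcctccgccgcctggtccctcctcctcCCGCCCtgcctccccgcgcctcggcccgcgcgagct

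The *SPRY1* window held 45.6% G and C and none of the 7 motifs searched, whereas the other windows shown held 70.4% to 78.4% and at least 1 GC box, beside a median of 58.0% over 35116 RefSeq windows of the same length. A GC box stood in 42.6% of all windows and the EGR motif in 4.72%. The other motifs were AP-1 (TGACTCA, 4.20% of windows), CRE (TGACGTCA, 1.65%), the ETS core (CCGGAAGT, 3.42%), TATAAA (10.7%) and the E-box CACGTG (6.34%), searched on both strands. Of these, the ETS core matched 2 times in the *ERBB2* window, which lies partly inside the annotated gene, and the rest matched in no window of the 8 genes that had one. *IGF1R* held 2 GC boxes and *SPRED2*, whose window also lies partly inside its annotated gene, no motif. These matches describe letters and do not show that a factor binds.

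Among the Sprouty genes, which encode membrane-associated inhibitors of receptor-driven RAS signaling, *SPRY1* was the most abundant per kb of transcript in DMSO treated cells. *SPRY1* (chr4:123396795-123403760) stood at 9.44, 9.05 and 8.06 CPM in the DMSO samples and at 0.38, 0.31 and 0.24 CPM in the CDKI-73 samples. The lowest DMSO sample was thus far above every CDKI-73 sample. On the scale of log2(CPM + 0.1) *SPRY1* fell by 4.46 (SE 0.149, limma adjusted p = 7.7e-08), and the change was -4.81 with a pseudocount of 0.01 CPM and -2.91 with 1 CPM. Counted reads inferred from the smallest step of the CPM came to 1494 over the DMSO samples and 47 over the CDKI-73 samples, a depth-corrected ratio of 3.53% (exact interval 2.58% to 4.72%, counting error only).

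*SPRY2* (chr13:80335976-80341126) stood at 1.36, 1.03 and 1.12 CPM in DMSO and 0.06, 0.02 and 0.02 CPM in CDKI-73 treated cells. The CDKI-73 values equal only 3, 1 and 1 inferred reads, against 83, 56 and 59 in DMSO, so the transcript was near the limit of detection after treatment. The ratio of summed reads was 2.83% (exact interval 0.910% to 6.73%, counting error only). Its fitted log2 change of -3.26 (SE 0.201, limma adjusted p = 1.6e-06) depended on the pseudocount and was -4.88 with 0.01 CPM and -1.07 with 1 CPM.

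*SPRY4* (chr5:142310427-142326455) had a low level in DMSO treated cells, as *SPRY2* did, and a smaller fall. Its values were 1.36, 1.60 and 1.91 CPM in DMSO and 0.96, 1.16 and 0.63 CPM in CDKI-73 treated cells, which did not overlap. *SPRY4* fell by 0.79 on the log2 scale (SE 0.219, limma adjusted p = 0.0117), and 27.2% of all genes had a lower log2 change. Its ratio of summed inferred reads was 57.6% (139 against 271 reads, exact interval 46.6% to 70.9%, counting error only), and this interval lay above that of *SPRY2*. Single CDKI-73 samples stood at 38.8% to 71.5% of the DMSO mean for *SPRY4* and at 1.71% to 5.13% for *SPRY2*. With upper quartile scaling the change was -0.53 and missed the threshold (limma adjusted p = 0.0502). Within each sample, the CPM of *SPRY1* was 6.94, 5.66 and 4.22 times that of *SPRY4* in DMSO and 0.396, 0.267 and 0.381 times in CDKI-73 treated cells, a ratio that no scaling of the libraries can alter.

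The SPRED genes encode inhibitors that share a Sprouty-type C-terminal domain and hold RAS signaling down at the membrane. *SPRED1* (chr15:38252836-38357249) measured 18.33, 18.45 and 19.06 CPM in DMSO and 3.69, 4.07 and 2.95 CPM in CDKI-73 treated cells. *SPRED2* (chr2:65310851-65432637) measured 19.19, 19.77 and 22.34 CPM in DMSO and 5.45, 5.15 and 3.56 CPM in CDKI-73 treated cells. In both genes the groups were well apart. The log2 change was -2.36 (SE 0.115, limma adjusted p = 4.1e-07) for *SPRED1* and -2.11 (SE 0.154, limma adjusted p = 4.5e-06) for *SPRED2*. Their intervals, -2.63 to -2.10 and -2.47 to -1.76, overlapped. Of the genes tested with a mean of 5 to 20 CPM, as these have, 35.1% were called lower.

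*ERRFI1* (chr1:8004404-8026309), the inhibitor of the ERBB kinase domain, was the most abundant feedback transcript per kb. It measured 72.57, 69.03 and 69.14 CPM in DMSO and 16.74, 17.63 and 7.66 CPM in CDKI-73 treated cells. The DMSO samples lay close together, whereas CDKI-73 replicate 3 was well below the other CDKI-73 samples. *ERRFI1* fell by 2.41 on the log2 scale (SE 0.278, limma adjusted p = 7.9e-05), and by 2.03 without CDKI-73 replicate 3. The CPM of *ERRFI1* relative to that of its target *EGFR* in the same sample was 2.33, 1.94 and 1.64 in DMSO and 0.726, 0.828 and 0.466 in CDKI-73 treated cells, so this ratio was lower in every treated sample than in any DMSO sample.

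*EGFR* (chr7:55019017-55211628) varied more, relative to its mean, than the other receptors in DMSO, at 31.19, 35.52 and 42.16 CPM, and measured 23.07, 21.28 and 16.45 CPM in CDKI-73 treated cells. Every treated sample was below every DMSO sample. *EGFR* fell by 0.84 on the log2 scale (SE 0.144, limma adjusted p = 0.00088), less than 2-fold, and by 0.70 without CDKI-73 replicate 3. With scaling to the reference genes the change was -1.25 (limma adjusted p = 0.00012), past 2-fold and called, and with the upper quartile -0.57. An opposite-strand transcript, *EGFR-AS1*, lies within the locus and averaged 0.05 CPM in DMSO.

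*IGF1R* (chr15:98648539-98964530) measured 116.85, 119.78 and 135.07 CPM in DMSO and 86.57, 92.62 and 80.94 CPM in CDKI-73 treated cells. The groups did not overlap, and *IGF1R* fell by 0.51 on the log2 scale (SE 0.0715, limma adjusted p = 0.00025), although 35.8% of all genes had a lower log2 change. With upper quartile scaling the change of *IGF1R* was -0.24 and with scaling to reference genes -0.92, both past the threshold. Within each sample its CPM was 0.948, 0.996 and 1.08 times that of *ERBB2* in DMSO and 0.706, 0.765 and 0.674 times in CDKI-73 treated cells.

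*ERBB2* (chr17:39687914-39730426) measured 123.29, 120.22 and 125.27 CPM in DMSO and 122.62, 121.01 and 120.06 CPM in CDKI-73 treated cells. *ERBB3* (chr12:56076799-56103505), its signaling partner, measured 223.77, 235.72 and 253.95 CPM in DMSO and 243.77, 237.93 and 216.75 CPM in CDKI-73 treated cells. For both the groups overlapped. The log2 change was -0.02 for *ERBB2* (interval -0.11 to 0.07, limma adjusted p = 0.67) and -0.03 for *ERBB3* (interval -0.18 to 0.12, limma adjusted p = 0.68), which bounds any change on this scale to well under 2-fold without showing that the levels were equal. The ratio of *ERBB3* to *ERBB2* CPM was 1.81, 1.96 and 2.03 in DMSO and 1.99, 1.97 and 1.81 in CDKI-73 treated cells, and these values overlapped too.

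The direction of *ERBB2* and *ERBB3* depended on the scaling. With upper quartile scaling their log2 changes were 0.26 and 0.25, and with scaling to *GAPDH*, *ACTB* and *HPRT1* they were -0.43 and -0.44, all past the adjusted p in limma. These scalings moved the median of all genes by 0.27 and -0.40, and the 6441 lower and 3242 higher genes at the adjusted p became 4895 and 5775 with the upper quartile and 9919 and 387 with the reference genes. On the deposited scale both receptors stood above the median gene, since 59.3% and 58.7% of genes had a lower log2 change than *ERBB2* and *ERBB3*. *MIEN1* and *PGAP3* overlap *ERBB2* on the opposite strand and went from 64.6 to 88.6 and from 13.4 to 14.8 CPM. Which strand was counted is not stated, so reads of *ERBB2* and of these neighbours cannot be told apart where they overlap. Of the genes with a mean of at least 100 CPM, to which *ERBB2*, *ERBB3* and *IGF1R* belong, 5.22% were called lower.

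**Figure D2:**
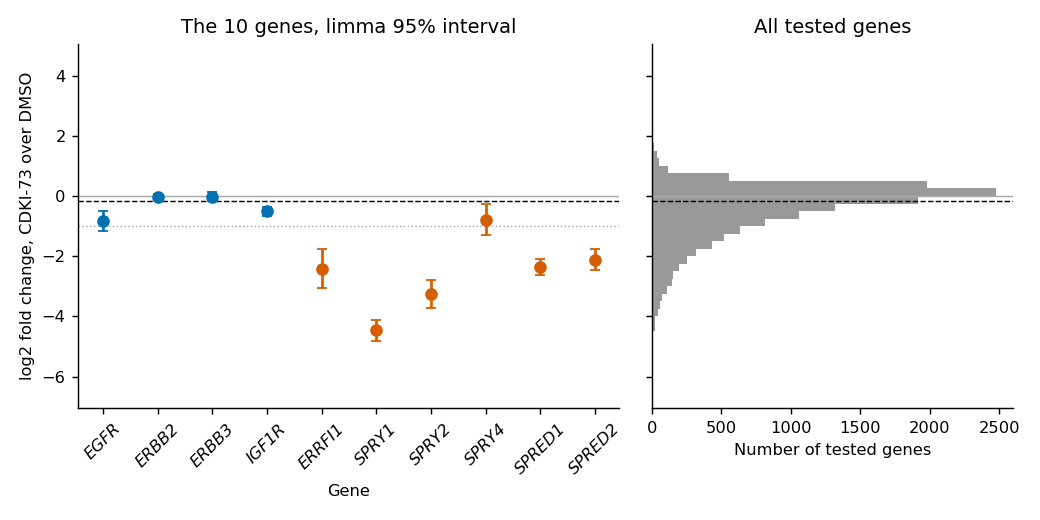
Log2 change of CDKI-73 over DMSO for each gene with its 95% interval (left, receptors blue, feedback genes orange) and the distribution over all 13373 genes tested (right), where the dashed line marks the median of all genes, -0.18, and the dotted line a 2-fold fall. All feedback genes but *SPRY4* lie beyond the dotted line, and *SPRY4* and the receptors lie short of it.

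**Figure D3:**
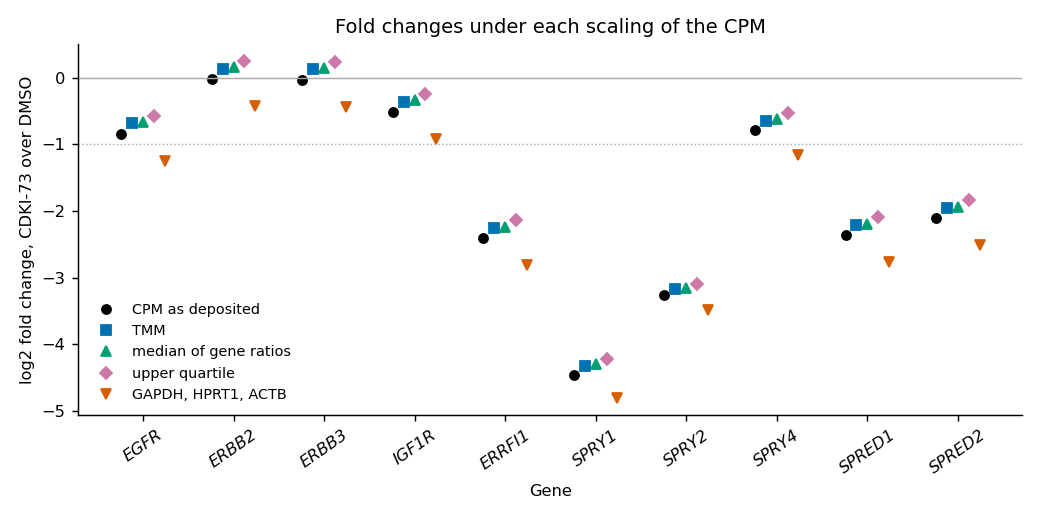
Log2 change of each of the 10 genes under the deposited CPM scale and 4 other scalings of the libraries. The feedback genes stay below 0 under each, whereas *ERBB2* and *ERBB3* lie above 0 under the trimmed mean of M-values, median ratios and the upper quartile, and below 0 with the reference genes.

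One treated library contributed more to these falls than the other treated libraries. CDKI-73 replicate 3 was the lowest CDKI-73 sample for 9 of the 10 genes, beside 44.7% of all genes tested and 61.3% of the genes called lower. *ERRFI1* was left at 24.5% of its DMSO mean in the mean of replicates 1 and 2 and at 10.9% in replicate 3. Without replicate 3, *SPRY4* changed by -0.56 and 8 genes still passed the adjusted p. This library had 46.1 M counted reads, as inferred, and the other 5 had 51.9 to 60.9 M, so that 1 read was worth 0.0164 to 0.0217 CPM over the 6 samples. The part of library depth in the result was not tested.

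To compare levels between genes, CPM were divided by the length of the canonical transcript in GENCODE v44, as the isoform in use is not known. In DMSO treated cells the level was 42.4 ± 2.71 CPM per kb for *ERBB3*, 27.0 ± 0.558 for *ERBB2* and 22.7 ± 0.650 for *ERRFI1* (SD, n = 3). *IGF1R* followed at 10.1 ± 0.800 CPM per kb, then *SPRED2* at 4.52 ± 0.371, *EGFR* at 3.66 ± 0.558, *SPRY1* at 3.40 ± 0.273 and *SPRED1* at 2.56 ± 0.0538. *SPRY2* at 0.512 ± 0.0746 and *SPRY4* at 0.331 ± 0.0562 CPM per kb came last. The sample values of *SPRED2* and *EGFR* overlapped, as did those of *EGFR* and *SPRY1*, so their order is not fixed by these data.

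After CDKI-73 the 4 receptors held 4 of the 5 highest places, and *ERRFI1* went to 4.52 ± 1.78 CPM per kb, below *IGF1R* at 7.09 ± 0.477. *ERBB3* stood at 41.5 ± 2.53 and *ERBB2* at 26.6 ± 0.284 CPM per kb. *EGFR* at 2.05 ± 0.346 was above *SPRED2* at 1.04 ± 0.225 and *SPRED1* at 0.491 ± 0.0783. *SPRY4* at 0.187 ± 0.0546 and *SPRY1* at 0.119 ± 0.0269 overlapped, and *SPRY2* at 0.0146 ± 0.0101 CPM per kb was last.

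The feedback genes also differed from the receptors in structure. Their canonical transcripts have 2 to 7 exons, with 2 in *SPRY2* and *SPRY4* and 7 in *SPRED1*, whereas those of the receptors have 21 to 28. Among all tested genes matched to a gene model, 32.0% of the 4846 with at most 7 exons were called lower and 12.2% of the 1577 with at least 21. The 3′ UTRs of the feedback genes held 1.89 to 4.30 copies of the AU-rich pentamer ATTTA per kb, and those of the receptors 0 to 1.69, beside a median of 1.80 over 10746 genes. *SPRED1* had 24 copies in 5585 bases and *ERBB2* none in 614. By number of copies the groups overlapped. *IGF1R* had 12, *EGFR* 9 and *ERBB3* 2, beside 2 in *SPRY2*, 4 in *SPRY1*, 5 each in *ERRFI1* and *SPRED2* and 8 in *SPRY4*. AU-rich elements are known for their presence in short-lived mRNAs. Exon number and pentamer copies per kb were chosen after the values were seen. Receptor and feedback genes differ in both at once. *ERBB2*, *ERBB3* and *IGF1R*, at means of at least 100 CPM, also stood above every feedback gene in level. Whether any of these has to do with the fall was not tested and cannot be told apart here. *SPRY4*, the feedback gene with the smallest fall, had 2.12 copies per kb.

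**Figure D4:**
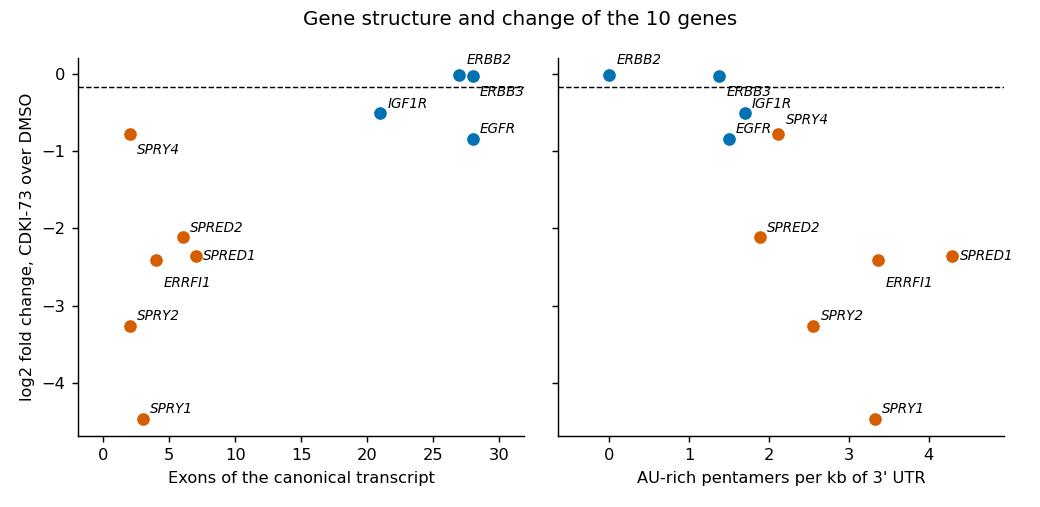
Log2 change of CDKI-73 over DMSO against the exon number of the canonical transcript (left) and against copies of the AU-rich pentamer per kb of 3′ UTR (right), 1 point per gene. Feedback genes (2 to 7 exons) sit to the left of the receptors (21 to 28 exons), and the dashed line marks the median log2 change of all genes, -0.18.

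The wider pathway was described with 7 lists. Of 13 ERBB and IGF ligands, 5 passed the filter on low values, and 2 fell while 1 rose in limma. Of all genes tested 48.2% were lower and 24.2% higher. *HBEGF*, a ligand of EGFR, fell from 2.87 to 0.963 CPM (log2 change -1.48), *NRG4*, a ligand of ERBB4, changed by -0.57 and *EGF* by 0.20. *AREG*, *EREG*, *BTC* and *NRG1* were below the filter. The median of the list was -0.08, near that of all genes. With upper quartile scaling 1 ligand was lower and 3 were higher, and with reference genes 5 were lower and 0 higher, so the rise of *EGF* was then lost. Of all genes, 4895 of 13375 were lower and 5775 higher with the upper quartile. With reference genes 9919 of 13394 were lower and 387 higher.

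Among 20 other receptor tyrosine kinases, 11 passed the filter, with 5 lower, 2 higher and a median log2 change of -0.09. These counts are near the shares of all genes tested, 48.2% lower and 24.2% higher. The counts of the list became 4 lower and 4 higher with the upper quartile (median 0.18) and 9 lower and 0 higher with reference genes (median -0.50). Of all genes, 4895 of 13375 were then lower and 5775 higher with the upper quartile. With reference genes 9919 of 13394 were lower and 387 higher. *INSR*, the insulin receptor and nearest relative of *IGF1R*, fell from 41.1 ± 0.616 to 18.7 ± 2.47 CPM (log2 change -1.14), and *EPHA2*, an ephrin receptor, changed by -1.01. *ERBB4*, the remaining ERBB receptor, was below the filter.

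Receptor adaptors with ubiquitin ligases, and negative regulators of receptor or RAS signaling, made up 2 lists, not all of whose members bind the receptors described here. The counts of these lists and of the RAS-RAF-MEK-ERK cascade stand beside 48.2% of all genes lower, 24.2% higher and 22.3% called lower. Of 17 adaptors and receptor ubiquitin ligases 12 were lower, 2 higher and 10 called lower (median -1.19). *IRS2*, which couples IGF1R and INSR to PI3K, fell from 7.90 to 0.503 CPM (log2 change -3.75), and the adaptors *CRKL* and *GRB7* fell with log2 changes of -2.62 and -2.29. Of 20 tested negative regulators other than the 6 feedback genes, 17 were lower, 1 higher and 12 called lower (median -1.10). With reference genes 0 genes of either list were higher, and 16 and 20 were lower. Of all 13394 genes tested with that scaling, 9919 were lower and 387 higher. *LRIG3* and *LRIG2*, members of a family of transmembrane receptor regulators, fell with log2 changes of -3.36 and -2.78. *SPRY3*, the remaining Sprouty gene, fell with one of -2.56. After CDKI-73 *SPRY3* was at 0.19 CPM, under the filter of 0.5 CPM. It entered the test only through its DMSO level, so its call is a description. In the RAS-RAF-MEK-ERK cascade 5 of 12 genes were lower and 5 higher, none was called, and the median was 0.03. *BRAF*, a kinase that RAS activates, fell with a log2 change of -0.87. With reference gene scaling 9 genes of the cascade were lower and 0 higher, and with upper quartile scaling 3 were lower and 7 higher. Of all 13375 genes tested with the upper quartile, 4895 were lower and 5775 higher.

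In the PI3K-AKT arm 11 of 16 tested genes were lower, 4 higher and 7 called lower (median -0.78). The shares of all genes were 48.2% lower, 24.2% higher and 22.3% called lower. With reference genes 12 were lower and 0 higher, beside 9919 lower and 387 higher of all 13394 genes tested with that scaling. *PIK3R1*, the regulatory subunit p85α of PI3K, fell from 127.6 ± 3.50 to 7.75 ± 2.30 CPM (log2 change -4.07). The forkhead factors *FOXO1* and *FOXO3*, which AKT holds out of the nucleus, fell with log2 changes of -2.89 and -2.24.

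Transcripts known to be induced by ERK went both ways. Of 14 such genes 8 passed the filter, and 5 were lower while 3 were higher (median -0.43). Of all genes tested 48.2% were lower and 24.2% higher, so counts over so few genes do not set this list apart. *DUSP4*, a phosphatase that inactivates ERK, fell from 20.2 ± 0.588 to 1.81 ± 0.504 CPM (log2 change -3.44), and *MYC* fell by 1.52. *PHLDA1* rose from 1.01 ± 0.105 to 5.92 ± 1.78 CPM (log2 change 2.39) and was the one gene of the 7 lists called higher. The immediate early genes *FOS* and *EGR1* rose from 0.437 to 0.963 CPM (log2 change 0.99) and from 0.86 to 1.71 CPM (log2 change 0.93). *FOS* and *EGR1*, named after their values were seen, complete the 3 that rose. *FOS*, whose DMSO level was under the filter of 0.5 CPM, entered the test only through its CDKI-73 level, so its rise is a description. *DUSP6*, *ETV4* and *ETV5* were below the filter. These lists were written from general knowledge with earlier results of the data known, so their counts describe the pathway and do not test it.

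**Figure D5:**
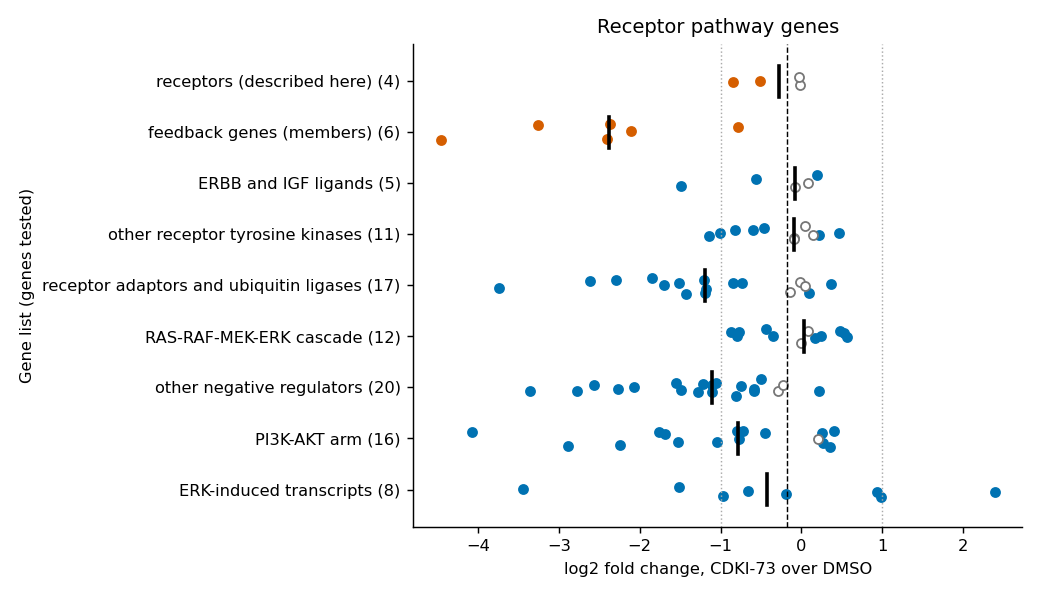
Log2 change of each tested gene by list, with genes past the adjusted p filled (orange for the 10 genes described here, blue for the list genes) and the rest as open circles, *ERBB2* and *ERBB3* among them. Black bars mark list medians, the dashed line the median of all genes, -0.18, and dotted lines 2-fold changes.

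By the Euclidean distance over the 6 samples of log2(CPM + 0.1) less its DMSO mean, the genes of at least 5 CPM nearest to *EGFR* among 10211 were *CCDC88C* (distance 0.139), *CBL* (0.185) and *ZBTB7A* (0.196). *CBL*, the ubiquitin ligase that marks activated EGFR for degradation, went from 25.9 ± 2.15 to 14.5 ± 1.96 CPM. Nearest to *SPRY1* were *ZBED5* (0.262), *ASTE1* (0.307) and *AURKA* (0.325).

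The samples were checked for identity and scale. All 10 prostate luminal markers were tested, and their summed level was 8774 to 9066 CPM in DMSO and 7403 to 7620 CPM in CDKI-73 treated cells. Of 5 basal markers *KRT5*, *TP63* and *KRT15* were below the filter, while *ITGA6* went from 56.7 to 43.7 CPM and *KRT14* from 0.86 to 1.20 CPM. Of 10 stromal, endothelial and immune markers 6 were below 0.5 CPM in every sample, and *COL1A2* and *CD3E* were listed at 0 throughout. The 4 tested markers were detected, with 2 higher and 0 lower in limma. *COL1A1* went from 9.86 to 13.7 CPM and *CD68* from 5.10 to 6.66 CPM. *VWF*, at 10.1 CPM in DMSO, and *COL3A1* missed the adjusted p. The summed level of the 10 markers was 24.7 to 26.0 CPM in DMSO and 29.4 to 34.2 CPM in CDKI-73 treated cells. Their part in the results was not tested. *GAPDH*, *ACTB* and *HPRT1*, used as qRT-PCR references, were higher by 0.55, 0.36 and 0.32 on the log2 scale of the CPM.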

How the data were processed

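LNCaP RNA from 3 CDKI-73 and 3 DMSO samples, described as biological replicates, was polyA+ enriched, sequenced single-end (75 bp, stranded kit) and, per the submitters' processing notes, handled with FastQC, STAR, edgeR 3.3 and R 3.2.3 on hg38. The authors deposited CPM made from their gene counts, rounded to 0.01 and without a TMM factor. The annotation and the counted strand are not stated in the labels or methods.

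Of 29744 genes, the 13373 with a mean of 0.5 CPM or more entered limma 3.58.1 (R 4.3.3) on the log2(CPM + 0.1) scale, with a moderated two-sided test, an intensity trend and no covariate, and Benjamini-Hochberg adjustment over all of them. Fold changes on this scale understate the change of low genes. Intervals are 95%. Counted reads (46.1 to 60.9 M per sample) were inferred from the smallest CPM step, and intervals on them cover counting error only. Coordinates are from GENCODE v44 (hg38) and upstream sequences from RefSeq. The analysis was tested on simulated data. Alternatives were pseudocounts of 0.01 and 1 CPM, no filter or a mean of at least 2 CPM, 4 scalings, limma without trend or robust, a replicate block, each sample left out and, added after the data were seen, limma voom on inferred reads.

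The 10 genes, the gene lists and the tests were chosen with earlier results of these data known. Named genes are the 10 genes, from each list at most 3 of those past the adjusted p, taken by size of change, the reference genes and the 3 genes nearest in pattern to *EGFR* and *SPRY1*, and others are named only where a count needs them. Some genes that this rule covers are not reported. Tables and plots used pandas 2.3.3 and matplotlib 3.10.9 in Python 3.11.15.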

Additional observations from a re-analysis of the deposited data

How the results depend on the processing

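The falls of *EGFR*, *IGF1R*, *ERRFI1*, *SPRY1*, *SPRED1* and *SPRED2* kept their direction and their side of the adjusted p of 0.05 in limma under all 18 alternatives, those of *SPRY2* under the 15 in which it was tested, and *SPRY4* missed it in 1 of 17 (-0.53, upper quartile). *ERBB2* turned to 0.14 with the trimmed mean of M-values, 0.16 with median ratios, 0.26 with the upper quartile and 0.14 with voom on inferred reads. *ERBB3* turned to 0.13, 0.15, 0.25 and 0.13 in the same order, and lay between -0.073 and 0.020 when a sample was left out (0.018 without DMSO replicate 3 and 0.020 without CDKI-73 replicate 3). The cause of the turns was not tested. With reference genes 7 of the 10 genes were called lower instead of 5, *EGFR* and *SPRY4* being added. The share of all genes called lower was then 32.9%, against 22.3% on the deposited scale. With a mean of at least 2 CPM 4 were called, beside 22.9% of all genes, since *SPRY2* was then not tested. *SPRY4* was not tested there either, but it was not among the 5. Without DMSO replicate 1 or 3 *SPRY2* fell under the filter.

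Over all genes 6441 were lower and 3242 higher at the adjusted p, against 5520 and 4749 with the trimmed mean of M-values, 4895 and 5775 with the upper quartile and 9919 and 387 with reference genes. Genes called higher numbered 148, against 52 with a pseudocount of 1 CPM, 377 without a filter, 52 with a mean of at least 2 CPM, 289 with the upper quartile, 71 with reference genes and 234 with voom. In the pathway lists 1 gene was called higher, and 3 were with a pseudocount of 0.01 CPM, the trimmed mean of M-values, median ratios, the upper quartile or voom, and 1 to 3 when a sample was left out (3 without DMSO replicate 1, 2 without DMSO replicate 2 and 2 without CDKI-73 replicate 3). *FOS* and *EGR1*, close to 2-fold, were the genes added.

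With the replicate number as a block, 8 of the 10 genes were lower in limma and 2986 genes were called lower, as without it. Same-numbered samples did not deviate together (correlations -0.295, 0.106 and -0.227 across genes), so the numbers are not taken to pair them. CPM to 2 decimals leave *SPRY2* after CDKI-73 at 1 to 3 reads a sample, which limits how far its fall can be measured.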
